A study of Mus musculus with 4 samples.

Results

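A set of 8 genes of the CC chemokine system, the group of small secreted proteins and receptors that draws monocytes into tissue, were followed in the inferior vena cava of mice: the chemokines Ccl2, Ccl3, Ccl4, Ccl7, Ccl8 and Ccl12 and the receptors Ccr1 and Ccr2. They were found by symbol among the probe sets whose platform annotation gives exactly 1 gene. All 8 were measured, each by 1 probe set, among 18820 genes with a single symbol, and all 8 passed the filter on dim genes that left 14115 genes for comparison. The arrays were the one labelled Cd39-null, ligated, and those of Cd39-null, sham, wild type, ligated, and wild type, sham. In ligated mice the infrarenal vein had been tied with a ligature for 48 h to provoke a stasis thrombus. Sham surgery opened the abdomen and dissected the vein without tying it. All mice were 8 to 10 weeks old and bred at least 8 generations into C57BL/6J, and the Cd39-null line lacks Entpd1, the gene of a membrane enzyme that breaks down extracellular ATP and ADP. RNA of 4 mice was pooled for each array and each group had 1 array, so differences between arrays are given in log2 without a p-value, and nothing measures the spread within a group. The labels leave the sex of the pooled mice, the degree of ligation (complete or partial) and the presence of clot in the RNA piece unstated.

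CC chemokines are named for a pair of adjacent cysteines, and they act through G protein-coupled receptors on leukocytes. Ccl2, Ccl7 and Ccl12 are ligands of Ccr2, the receptor by which inflammatory monocytes leave the bone marrow and enter injured tissue, whereas Ccl3 acts through Ccr1 among others. Mouse Ccl8 has been described as a ligand of Ccr8. In resolving venous thrombi, monocytes and the macrophages they form are known for their part in fibrinolysis and remodelling of the clot.

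The targeted gene was measured first. Entpd1 had a log2 value of 6.14 on the ligated array labelled Cd39-null, 4.16 in Cd39-null, sham, 6.17 in wild type, ligated, and 7.11 in wild type, sham. The level on the ligated array thus goes against its genotype label, and every direction drawn from that array below rests on the label. Of the genes that define the tissue, the adhesion molecule Pecam1 lay between 7.19 and 8.34, and smooth muscle actin Acta2 between 8.34 and 9.68. As a stand-in for background, the 95th percentile of 1006 olfactory receptor probe sets was 2.68 on the ligated array labelled Cd39-null, 2.97 in Cd39-null, sham, 2.66 in wild type, ligated, and 2.94 in wild type, sham. Entpd1 was 1.19 log2 above this level in Cd39-null, sham, so its probe set gave signal in that group too. Of the 8 chemokine genes, Ccl3 was at or under this level on both sham arrays, and the other 7 were above it on every array.

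Proximal promoters from RefSeq (build GRCm38.p6, 250 bases before to 50 after the start of the gene) were held for 5 of the 8 genes, namely Ccl3, Ccl8, Ccl12, Ccr1 and Ccr2. They were searched on both strands for 6 motifs. The TATA box was written as TATAAA, and the core of sites bound by the myeloid factor PU.1 as GAGGAA. A form of the AP-1 site was TGANTCA, one of the C/EBP site was TTGCNNAA, the GC box was given by GGGCGG, and part of the NF-kappaB site by GGANTTTCC. The sequences of Ccl3, which had the highest mean ligation difference, of Ccl8, whose differences had opposite signs in the genotypes, and of Ccl12, the neighbour of Ccl8, are printed here with every match in capitals. Ccl3 is chr11:83649329-83649628 on the minus strand, Ccl12 is chr11:82101595-82101894 and Ccl8 is chr11:82114935-82115234, both on the plus strand.
Ccl3: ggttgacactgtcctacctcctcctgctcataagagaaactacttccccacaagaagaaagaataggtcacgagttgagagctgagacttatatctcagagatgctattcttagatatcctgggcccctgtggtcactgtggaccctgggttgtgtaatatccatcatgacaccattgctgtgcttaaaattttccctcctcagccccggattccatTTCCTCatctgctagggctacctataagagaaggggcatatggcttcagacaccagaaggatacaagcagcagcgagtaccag
Ccl8: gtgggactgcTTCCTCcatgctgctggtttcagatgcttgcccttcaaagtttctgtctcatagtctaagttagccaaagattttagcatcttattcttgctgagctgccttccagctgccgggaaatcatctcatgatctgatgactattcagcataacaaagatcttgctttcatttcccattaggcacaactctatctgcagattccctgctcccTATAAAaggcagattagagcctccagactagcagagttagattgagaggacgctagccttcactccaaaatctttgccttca
Ccl12: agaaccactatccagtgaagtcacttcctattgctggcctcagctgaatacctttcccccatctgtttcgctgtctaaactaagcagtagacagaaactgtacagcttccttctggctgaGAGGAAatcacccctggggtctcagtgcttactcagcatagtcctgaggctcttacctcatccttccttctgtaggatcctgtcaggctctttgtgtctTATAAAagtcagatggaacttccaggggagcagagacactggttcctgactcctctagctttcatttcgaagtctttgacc

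Ccl8 and Ccl12, whose ligation differences are set side by side further on, each held a TATA and a PU.1 match. TATAAA lay at bases -32 to -27 from the start in Ccl8 and at -31 to -26 in Ccl12, and 13.6% of all 32851 promoters of this length held it. GAGGAA, or its reverse complement TTCCTC, was found once in each of Ccl3, Ccl8, Ccl12 and Ccr1, and 28.3% of all promoters held it. It lay at bases -240 to -235 on the minus strand in Ccl8 and at -130 to -125 on the plus strand in Ccl12. The Ccr2 window held no match to any of the 6 motifs. The other 4 motifs, held by 7.81% (AP-1), 10.8% (C/EBP), 35.7% (GC box) and 1.25% (NF-kappaB) of all promoters, matched none of the 5 windows. No matches overlapped. A match is only a run of letters in the window.

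**Figure D1:**
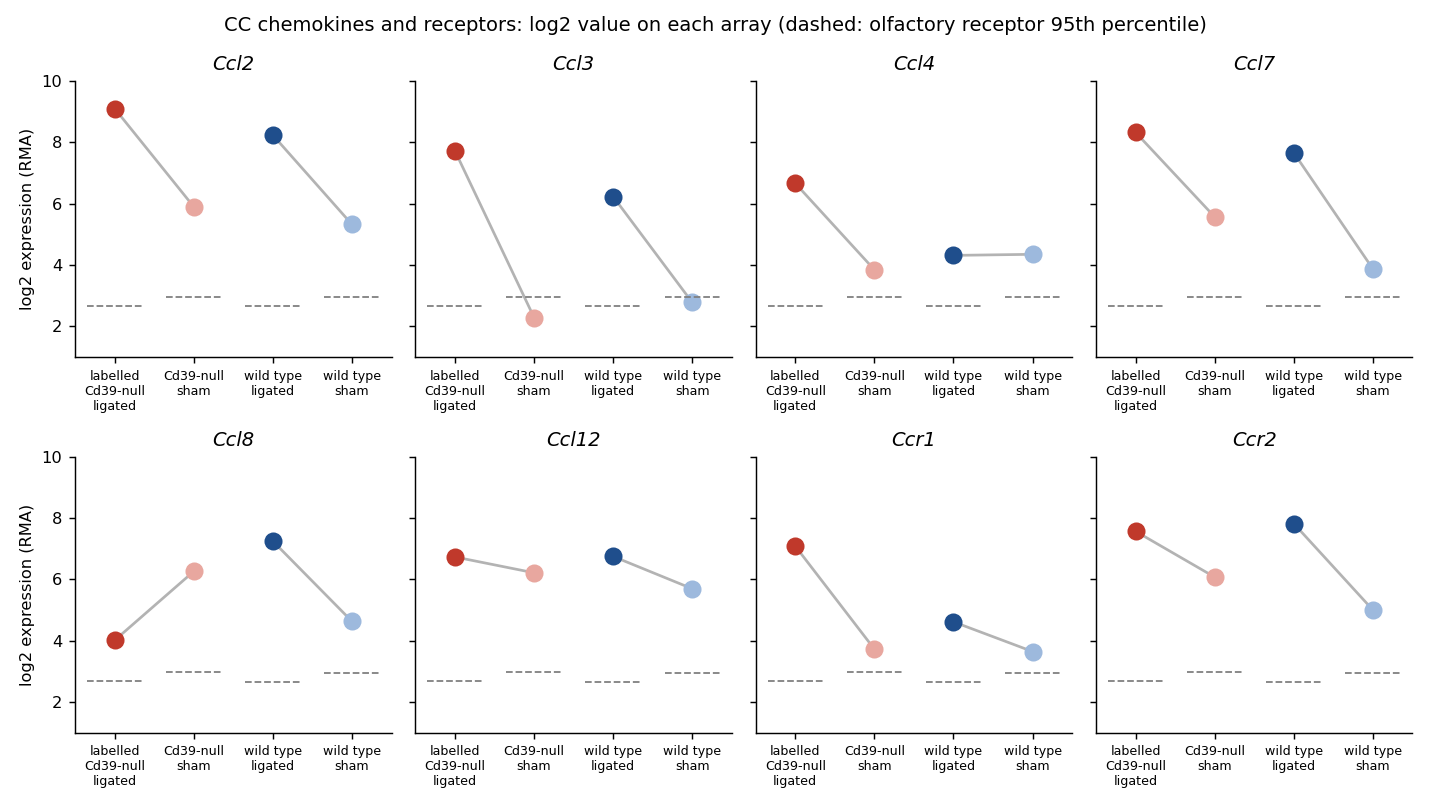
Log2 expression (RMA) of each of the 8 genes on each array, with grey lines joining the ligated and sham array of a genotype and dashed lines at the olfactory receptor 95th percentile of that array. Points are single arrays of RNA pooled from 4 mice, without error bars. Ccl8 is the only panel in which the ligated point lies below the sham point by more than 2-fold.

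The first question was how the chemokines and receptors differed after 48 h of ligation in each genotype. Ccl2, Ccl3, Ccl7 and Ccr2 were at least 2-fold higher after ligation in both genotypes. Ccl4 and Ccr1 passed 2-fold in the Cd39-null pair, and lay at -0.03 and 0.97 log2 in the wild-type pair. Ccl12 passed it in the wild-type pair and lay at 0.52 in the Cd39-null pair. Ccl8 was at least 2-fold lower in the Cd39-null pair and at least 2-fold higher in the wild-type pair. In the Cd39-null pair 6 of 8 genes were at least 2-fold higher, against 10.9% of all genes, and 1 was lower, against 5.8%. In the wild-type pair 6 of 8 were higher, against 6.6%, and 0 were lower, against 3.63%. Higher in both pairs were 4 of 8, against 3.63% of all genes. The median difference of the 8 genes was 2.79 in the Cd39-null pair and 2.72 in the wild-type pair, beside medians over all genes of 0.03 and -0.01.

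Among the ligands of Ccr2, Ccl2, also called monocyte chemoattractant protein, had a log2 value of 9.10 on the ligated array labelled Cd39-null, 5.90 in Cd39-null, sham, 8.23 in wild type, ligated, and 5.32 in wild type, sham. Both ligated arrays stood well above both sham arrays, and the differences of 3.20 in the Cd39-null pair (9.22-fold) and 2.91 in the wild-type pair (7.53-fold) were close to each other. Ccl7, a near neighbour of Ccl2 with overlapping receptor use, had values of 8.32 on the ligated array labelled Cd39-null, 5.57 in Cd39-null, sham, 7.66 in wild type, ligated, and 3.87 in wild type, sham. Its ligated arrays were again above both sham arrays, and the sham arrays lay further apart than the ligated ones. The ligation difference of Ccl7 was 2.76 in the Cd39-null pair and 3.79 in the wild-type pair, and the wild-type difference ranked 2 from the top of 14115 genes. Ccl12, another mouse ligand of Ccr2, had values of 6.73 on the ligated array labelled Cd39-null, 6.21 in Cd39-null, sham, 6.75 in wild type, ligated, and 5.69 in wild type, sham. Both ligated arrays were again above both sham arrays, with small gaps: the difference was 0.52 in the Cd39-null pair and 1.05 in the wild-type pair. The wild-type difference was under 2-fold after quantile normalisation (0.91) and after cyclic loess (0.96).

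The macrophage inflammatory proteins Ccl3 and Ccl4 parted from each other in wild-type veins. Ccl3, which is released by activated macrophages and neutrophils, had values of 7.72 on the ligated array labelled Cd39-null, 2.29 in Cd39-null, sham, 6.23 in wild type, ligated, and 2.78 in wild type, sham. Both ligated arrays were far above sham levels that were at or under background. Set against the background level, Ccl3 was thus at least 26.9-fold higher after ligation in the Cd39-null pair and at least 9.77-fold higher in the wild-type pair, and the measured differences were 5.43 and 3.45. Ccl4, which lies beside Ccl3 in the genome, had values of 6.66 on the ligated array labelled Cd39-null, 3.84 in Cd39-null, sham, 4.31 in wild type, ligated, and 4.35 in wild type, sham. A single array, the one labelled Cd39-null, ligated, was high, and the other 3 lay between 3.84 and 4.35. The ligation difference of Ccl4 was 2.82 in the Cd39-null pair (7.06-fold) and -0.03 in the wild-type pair.

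Ccl8 was the one gene of the 8 with differences past 2-fold in opposite directions. Its log2 value was 4.01 on the ligated array labelled Cd39-null, 6.26 in Cd39-null, sham, 7.25 in wild type, ligated, and 4.63 in wild type, sham. The 2 ligated arrays were its lowest and its highest, with the sham arrays between them. The ligation difference was -2.25 in the Cd39-null pair (4.75-fold lower) and 2.62 in the wild-type pair (6.13-fold higher). Against wild type, sham, in place of Cd39-null, sham, the array labelled Cd39-null, ligated, differed by -0.62 log2, which is less than 2-fold.

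Of the receptors, Ccr2 had values of 7.57 on the ligated array labelled Cd39-null, 6.07 in Cd39-null, sham, 7.82 in wild type, ligated, and 5.00 in wild type, sham. The ligated arrays were near each other and above both sham arrays, and the difference was 1.49 in the Cd39-null pair (2.815-fold) and 2.82 in the wild-type pair (7.05-fold). Ccr1, carried by monocytes and, in mice, also by neutrophils, had values of 7.08 on the ligated array labelled Cd39-null, 3.73 in Cd39-null, sham, 4.61 in wild type, ligated, and 3.65 in wild type, sham. The sham arrays were alike and the array labelled Cd39-null, ligated, stood apart. The difference was 3.36 in the Cd39-null pair (10.3-fold) and 0.97 in the wild-type pair, just under 2-fold.

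**Figure D2:**
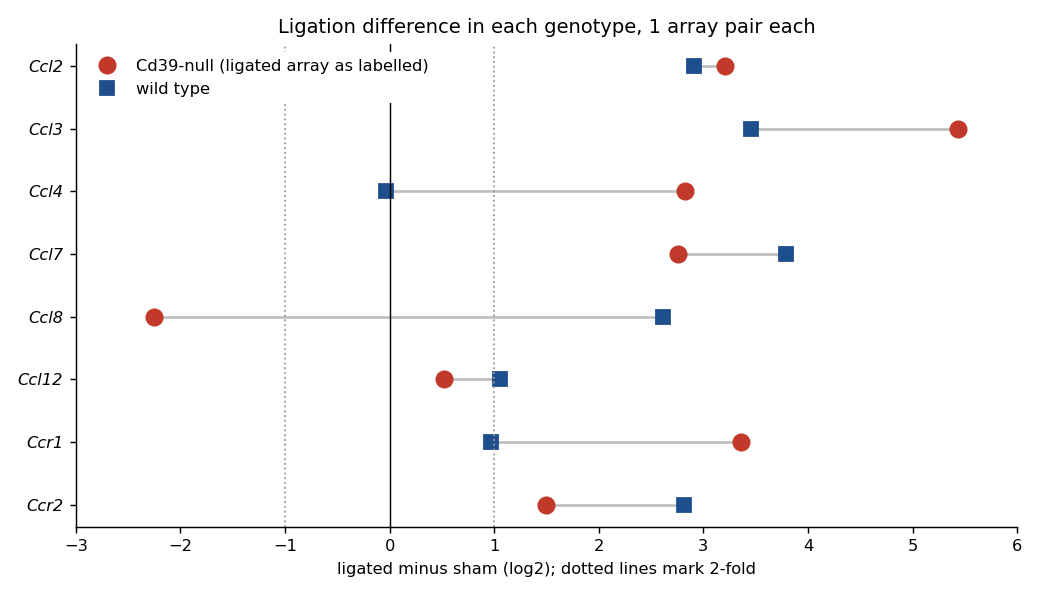
Ligated minus sham difference in log2 for each gene, in the Cd39-null pair (red circles) and the wild-type pair (blue squares), each from 1 array pair, with dotted lines at 2-fold. The circle and square of Ccl2 nearly meet at 3.20 and 2.91, while those of Ccl8 lie at -2.25 and 2.62.

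Taking the genotypes as a repeat of the ligation, 6 of the 8 genes, all but Ccl4 and Ccl8, had both ligated arrays above both sham arrays, which was the case for 28% of all genes. Limma's moderated test was applied to the ligation term of a model with genotype and ligation as additive terms. Only 1 residual degree of freedom is left in it, and unequal responses of the genotypes enter its error. With it, 0 of 8 genes passed a Benjamini-Hochberg adjusted p of 0.05, as did 0% of all genes. At an unadjusted p under 0.05, 6 of 8 genes were higher after ligation, against 13.2% of all genes. The mean log2 difference was 3.06 ± 0.23 (SE) for Ccl2, 4.44 ± 0.51 for Ccl3 and 3.27 ± 0.33 for Ccl7, each with a limma adjusted p of 0.0952, the smallest any gene reached. It was 2.16 ± 0.38 for Ccr2 (limma adjusted p 0.102), 2.16 ± 0.60 for Ccr1 (0.161) and 0.78 ± 0.25 for Ccl12 (0.195). Ccl4 (1.39 ± 0.70, limma adjusted p 0.328) and Ccl8 (0.18 ± 1.15, limma adjusted p 0.941) had the widest errors of the 8. Leaving out 1 array at a time, without the genotype term, moved the estimates of 3 genes by over 1.5 times. That of Ccr1 was 0.93 without the array labelled Cd39-null, ligated, and 3.40 without the wild-type ligated array, and that of Ccl4 was 0.22 and 2.57 in the same fits. That of Ccl8 was 1.80 and -1.43 there, 1.00 without Cd39-null, sham, and -0.63 without wild type, sham. Without the wild-type ligated array, where the ligated side is the 1 array labelled Cd39-null, 3 of the 8 genes passed the adjusted p of 0.05 with limma, against 0.56% of all genes, namely Ccl2 (0.0484), Ccl3 (0.0455) and Ccr1 (0.0455). Without any of the other 3 arrays 0 did.

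**Figure D3:**
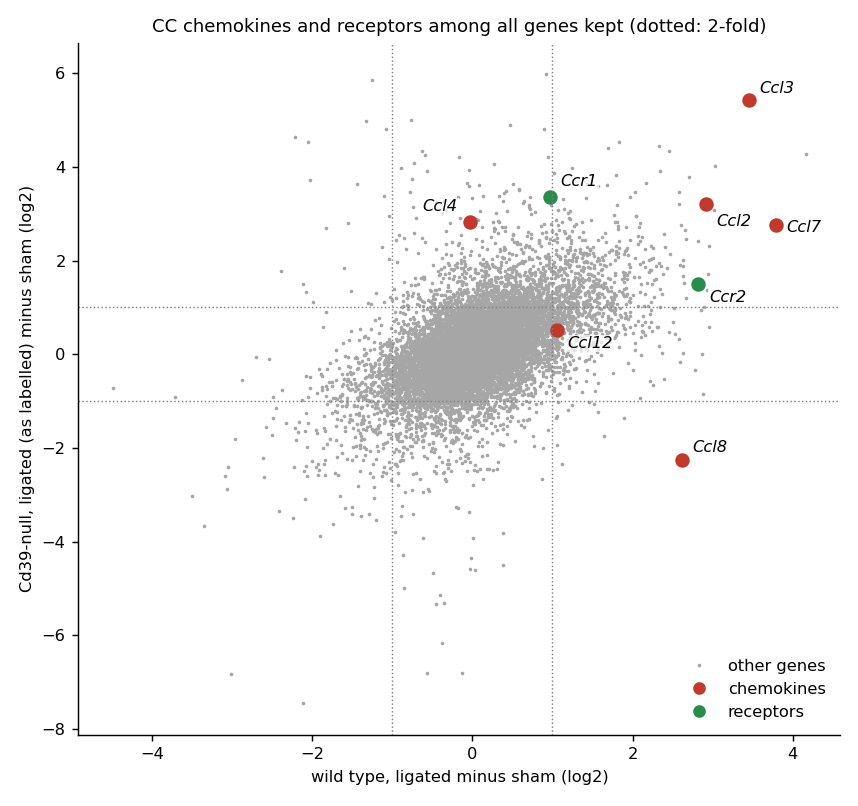
Ligated minus sham difference in log2 of all 14115 genes (grey points), wild type on the horizontal and Cd39-null on the vertical axis, with the 6 chemokines in red and the 2 receptors in green. Dotted lines mark 2-fold. Ccl2, Ccl3, Ccl7 and Ccr2 lie in the upper right, Ccl4 and Ccr1 above the middle, and Ccl8 alone of the 8 in the lower right.

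The second question was how the knockout differed from wild type under the same surgery. In sham veins, Ccl7 (1.70 log2), Ccl8 (1.63) and Ccr2 (1.07) were at least 2-fold higher in Cd39-null than in wild type, 3 of 8 genes against 2.95% of all genes, and 0 were lower, against 3.54%. The other 5 lay between -0.50 and 0.58. Tissue markers differed between these arrays too, and their part was not tested. The mean log2 value of 9 smooth muscle markers was 5.14 on the ligated array labelled Cd39-null and 6.61 on the wild-type ligated array, and it was 5.68 on the Cd39-null sham array and 7.26 on the wild-type sham array. At least 2-fold lower in Cd39-null were 7 of the 9 in ligated veins (median -1.31), against 2.66% of all genes. In sham veins 8 were (median -1.68), against 3.54%. Myocd, a smooth muscle coactivator named after its values were seen, was under the olfactory level on the array labelled Cd39-null, ligated (2.65). Of 13 endothelial markers, 0 in ligated veins and 5 in sham veins were at least 2-fold lower in Cd39-null, against the same 2 shares. In ligated veins, Ccr1 (2.47), Ccl4 (2.35) and Ccl3 (1.49) were at least 2-fold higher on the array labelled Cd39-null, 3 of 8 against 3.61%, and Ccl8 was lower (-3.23, 9.40-fold), 1 of 8 against 2.66%. The Ccl8 difference in ligated veins ranked 3 from the bottom of the 14115 genes. Ccl2 (0.87) and Ccl7 (0.66) were less than 2-fold higher, while Ccl12 (-0.02) and Ccr2 (-0.25) were close to their wild-type level. The genotype coefficient of the additive limma model passed the adjusted p of 0.05 for 0 of 8 genes, as for 0% of all genes, and an unadjusted p under 0.05 for Ccl2 and Ccl7, 2 of 8 against 6.94% of all genes.

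The ligation difference in Cd39-null minus that in wild type set the genes apart in groups that did not follow ligand and receptor. Ccl4 (2.85), Ccr1 (2.39) and Ccl3 (1.98) had the higher ligation difference in Cd39-null, 3 of 8 genes past 2-fold against 6.99% of all genes. Ccl8 (-4.87), Ccr2 (-1.32) and Ccl7 (-1.03) had the lower one, 3 of 8 against 5.5%. Ccl2 (0.29) and Ccl12 (-0.54) were under 2-fold. The lower value of Ccl7, and the size of that of Ccr2, depend on the Cd39-null, sham, array. Set against wild type, sham, the array labelled Cd39-null, ligated, was 4.45 higher for Ccl7, beside 3.79 in the wild-type pair. For Ccr2 it was 2.57 higher, beside 2.82, which is still lower but by less than 2-fold. The difference for Ccl8 ranked 8 from the bottom of the 14115 genes. This quantity uses all 4 arrays and leaves no residual for a test, and the genotype and ligation comparisons share arrays. The higher Ccl7, Ccl8 and Ccr2 of Cd39-null, sham, thus enter each comparison that uses that array.

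Ligation differences varied between neighbouring genes. In the RefSeq order of protein-coding genes on chromosome 11, Ccl2, Ccl7, Ccl11, Ccl12, Ccl8 and Ccl1 follow each other, and further along Ccl9, Ccl6, Ccl3 and Ccl4 do. Between Ccl7 and Ccl12 stands Ccl11, an eosinophil attractant. It had log2 values of 7.12 on the ligated array labelled Cd39-null, 7.93 in Cd39-null, sham, 7.39 in wild type, ligated, and 8.41 in wild type, sham. It was lower on both ligated arrays, with differences of -0.81 in the Cd39-null pair and -1.02 in the wild-type pair, where Ccl7 beside it was at 2.76 and 3.79. Ccl12 and Ccl8 had differences of 0.52 and -2.25 in the Cd39-null pair and of 1.05 and 2.62 in the wild-type pair. Ccl3 and Ccl4 were at 5.43 and 2.82 in the Cd39-null pair and at 3.45 and -0.03 in the wild-type pair. Ccr1 and Ccr2 lie on chromosome 9 with Ccr1l1 and Ccr3 between them, and both of those were left out as dim, with values from 1.70 to 2.06.

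Other CC chemokines served as a comparison within the family. Of 17 listed, 13 had a probe set of their own and 11 were kept, with a median ligation difference of -0.27 in the Cd39-null pair and -0.31 in the wild-type pair. At least 2-fold higher were 3 in the Cd39-null pair and 2 in the wild-type pair, against 10.9% and 6.6% of all genes. Ccl6 and Ccl9, mouse ligands of Ccr1, were higher in both. Ccl9 had values of 7.35 on the ligated array labelled Cd39-null, 4.70 in Cd39-null, sham, 6.90 in wild type, ligated, and 4.24 in wild type, sham, and its differences of 2.65 and 2.66 were nearly equal in the genotypes. Ccl6 differed by 2.01 in the Cd39-null pair and 2.63 in the wild-type pair. The third, Ccl24, named after its values were seen, was at 1.96 in the Cd39-null pair and -0.31 in the wild-type pair. At least 2-fold lower were 2 in the Cd39-null pair and 1 in the wild-type pair, against 5.8% and 3.63% of all genes. Ccl5, a chemokine of T cells and platelets, differed by -1.13 and -0.77. Ccl19, named after its values were seen, differed by -1.18 and -0.31. The 1 lower in the wild-type pair was Ccl11 (-1.02). In the additive limma fit 2 of these 11 had an unadjusted p under 0.05 on the higher side, against 13.2% of all genes. On the lower side 2 had, beside 21% of all genes in either direction, and 0 of the 11 passed the adjusted p.

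Of 13 other CC and scavenging receptors, 11 had a probe set of their own, 5 of them were dim, and 6 were kept. Ccr8, the described receptor of mouse Ccl8, was among the dim ones with values from 1.86 to 2.35, under the olfactory level on every array. Of the 6 kept, 1 was at least 2-fold higher in the Cd39-null pair and 0 in the wild-type pair, against 10.9% and 6.6% of all genes. This was Ccrl2, an atypical receptor that binds chemerin, at 1.91 in the Cd39-null pair and -0.49 in the wild-type pair. Ackr1, which takes up chemokines on venular endothelium, differed by -0.58 and -0.34, Ccr10 by -0.62 and -0.41, and Ccr7, the lymph node homing receptor, by 0.54 and -0.35. Limma gave 0 of the 6 an unadjusted p under 0.05, against 21% of all genes in either direction, and called 0 after adjustment.

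**Figure D4:**
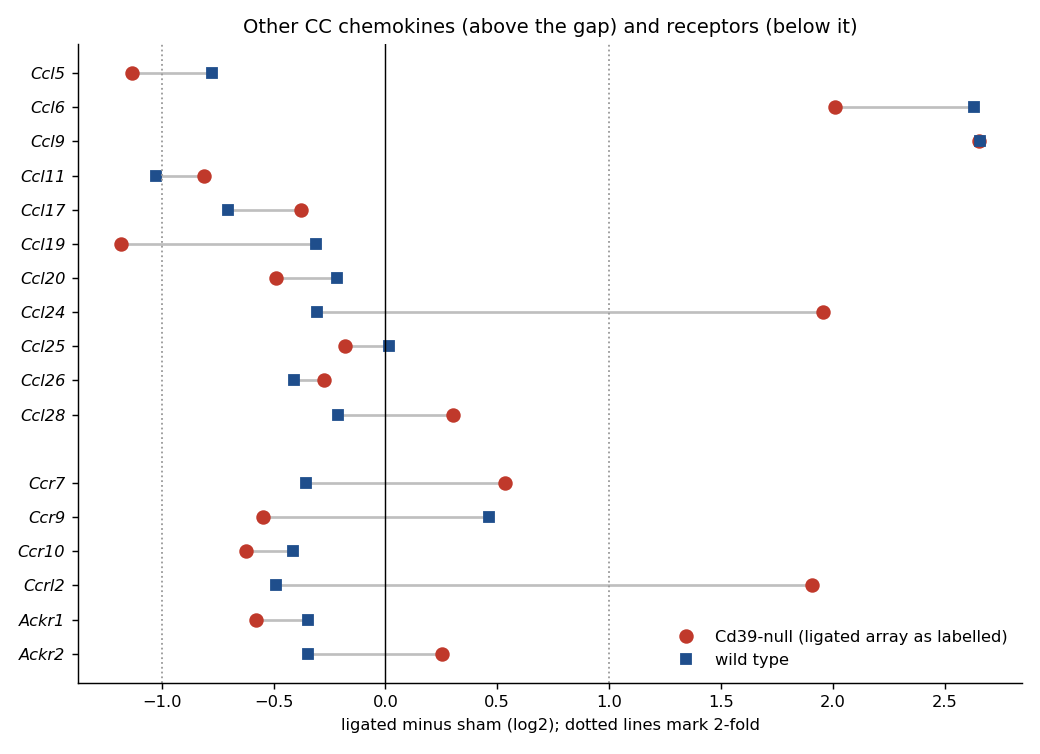
Ligated minus sham difference in log2 of the 11 other CC chemokines and the 6 other receptors that were kept, in the Cd39-null pair (red circles) and the wild-type pair (blue squares), with dotted lines at 2-fold. Ccl6 and Ccl9 lie above 2 log2 in both pairs, and Ccl24 and Ccrl2 in the Cd39-null pair stand at 1.96 and 1.91.

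Downstream of the receptors, 20 of 23 listed signalling genes were kept. In the Cd39-null pair 13 were at least 2-fold higher (median 1.21), against 10.9% of all genes, and in the wild-type pair 6 (median 0.49), against 6.6%. Higher in both were 5, against 3.63%. In either pair 0 were lower, against 5.8% in the Cd39-null pair and 3.63% in the wild-type pair. Rgs16, which speeds the turn-off of G proteins, differed by 2.56 in the Cd39-null pair and 2.40 in the wild-type pair. The phosphoinositide 3-kinase gamma regulator Pik3r5 differed by 1.60 and 1.87, the migration GTPase Rac2 by 1.97 and 1.43, and the G protein subunit Gnb2 by 2.01 and 1.16. Limma gave 10 of the 20 an unadjusted p under 0.05 on the higher side, against 13.2% of all genes, and called 0 after adjustment.

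Upstream, 23 of 26 listed cytokines, sensors, transcription factors and their regulators were kept. Most are known to induce CC chemokine genes, but the list also holds the NF-kappaB inhibitors Nfkbia and Tnfaip3. At least 2-fold higher were 13 in the Cd39-null pair (median 1.01), against 10.9% of all genes, with Nfkbia (1.00) among them. In the wild-type pair 4 were (median 0.39), against 6.6%. The same 4 were higher in both, against 3.63%. These 4 were Il6 (4.40 in the Cd39-null pair and 1.69 in the wild-type pair), Il1b (3.34 and 1.42), the Toll-like receptor adaptor Myd88 (2.02 and 1.63) and the transcription factor Irf5 (1.21 and 1.25). Il6 was under the olfactory level in wild type, sham (2.60), so its wild-type difference starts from a level not measured. Of the 23, 6 were at or under that level on at least 1 array. Limma gave 11 of the 23 an unadjusted p under 0.05 on the higher side, against 13.2% of all genes, and called 0 after adjustment.

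Markers of monocytes and macrophages, which carry these receptors, were mostly higher on the ligated arrays. Over 18 monocyte and macrophage markers the mean log2 value was 7.09 on the ligated array labelled Cd39-null, 5.15 in Cd39-null, sham, 6.83 in wild type, ligated, and 5.23 in wild type, sham, and all 18 were above the olfactory level on every array. At least 2-fold higher after ligation were 12 in the Cd39-null pair and 15 in the wild-type pair, against 10.9% and 6.6% of all genes. Higher in both were 11, against 3.63%, among them Arg1 (4.45 and 2.33), Msr1 (3.78 and 2.70), Itgam (3.65 and 2.17) and Clec4n (3.35 and 1.97). In tissue RNA, more cells of a type and more RNA per cell cannot be told apart. Between the ligated arrays the list divided. On the array labelled Cd39-null 5 markers were at least 2-fold higher, against 3.61% of all genes, and 5 lower, against 2.66%. Named after their values were seen, those higher were Chil3 (3.40), Cd14 (2.13), Arg1 (2.10), Itgam (1.45) and Clec4n (1.07). Those lower were Ms4a7 (-1.50), C1qa (-1.36), Mrc1 (-1.35), Adgre1 (-1.29) and Cx3cr1 (-1.26), genes known from tissue macrophages. The rest of the 18 differed by less than 2-fold. Against sham, Ms4a7, C1qa, Mrc1 and Adgre1 were 0.36 to 0.55 higher in the Cd39-null pair and 1.36 to 2.11 higher in the wild-type pair. Cx3cr1 differed by -0.51 and 0.35. Ccl8 differed by -2.25 and 2.62 in these pairs, and by -3.23 between the ligated arrays. A link between it and these markers was not tested.

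Neutrophil markers, of which 15 were kept, had a mean log2 value of 6.54 on the ligated array labelled Cd39-null, 4.84 in Cd39-null, sham, 4.52 in wild type, ligated, and 4.20 in wild type, sham. At least 2-fold higher after ligation were 7 in the Cd39-null pair and 3 in the wild-type pair, against 10.9% and 6.6% of all genes. Between the ligated arrays 11 of the 15 were at least 2-fold higher on the one labelled Cd39-null (median 2.18), against 3.61%, beside Ccr1 (2.47), Ccl4 (2.35) and Ccl3 (1.49). In sham veins 5 of the 15 were at least 2-fold higher in Cd39-null (median 0.58), against 2.95%. Ccr1, Ccl4 and Ccl3 lay at 0.08, -0.50 and -0.49 there. On the 4 arrays, in the order of the means above, 3, 4, 3 and 5 of the 15 were at or under the olfactory level. Platelet markers, 8 kept, had means of 7.94, 4.00, 4.35 and 5.42 in the same order, and 2 of them, Itga2b and Tubb1, were at or under that level in Cd39-null, sham. Between the ligated arrays 7 of the 8 were at least 2-fold higher on the one labelled Cd39-null (median 4.08), against 3.61% of all genes. After ligation 8 were higher in the Cd39-null pair, against 10.9%. In the wild-type pair 0 were higher, against 6.6%, and 5 were lower, against 3.63%. In sham veins 4 were lower in Cd39-null, against 3.54%. The means of B cell and adipocyte markers were highest in Cd39-null, sham, at 4.82 and 7.54, and were 3.15 and 5.44 in wild type, sham. In sham veins 7 of 8 B cell and 5 of 7 adipocyte markers were at least 2-fold higher in Cd39-null, against 2.95% of all genes. Ucp1 was the furthest apart of these (5.57 log2). Ccl7, Ccl8 and Ccr2 were higher on the Cd39-null, sham, array too. The part of these cell types in the chemokine and receptor values was not tested.

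**Figure D5:**
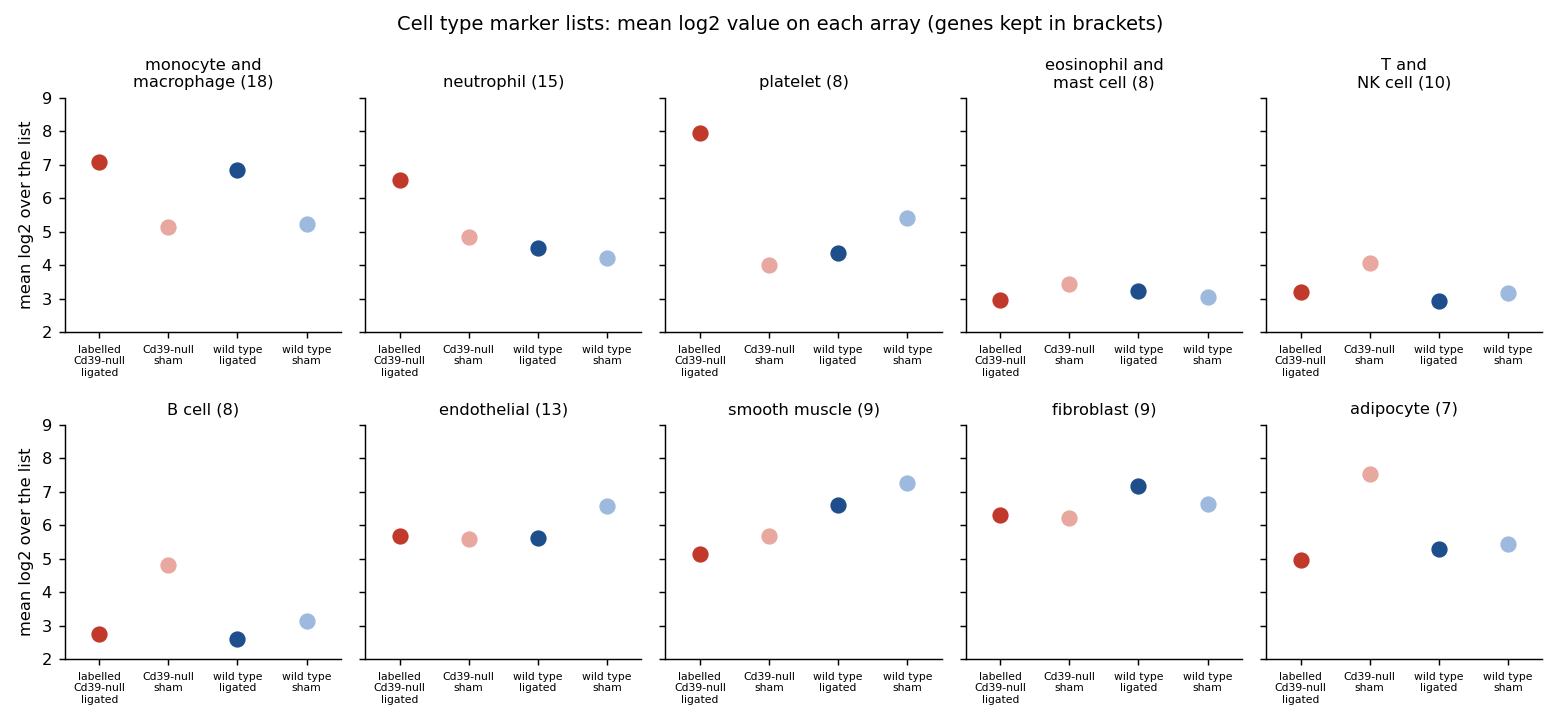
Mean log2 value over each list of cell type markers on each array, with the number of genes kept in brackets. The monocyte and macrophage means are 7.09 and 6.83 on the ligated arrays, against 5.15 and 5.23 on the sham arrays, while the platelet mean of 7.94 and the neutrophil mean of 6.54 stand apart on the array labelled Cd39-null, ligated.

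Genes with the most similar course were sought for Ccl2, Ccl3 and Ccr2 as the smallest root mean square difference over the 4 arrays, each gene centred on its own mean, among 13261 genes. For Ccl2 these were Nhp2 (0.10 log2), a small nucleolar RNA-binding protein, the actin-binding Cotl1 (0.12), Ccl9 (0.25), Msr1 (0.27) and the bacterial RNA sensor Tlr13 (0.29). For Ccr2 they were the clathrin adaptor subunit Ap2s1 (0.09), the RNA-editing deaminase Apobec1 (0.14), the proton pump subunit Atp6v0b (0.16), Ccl6 (0.21) and D17H6S56E-5 (0.21). Ccl3 had no gene as near, the closest being Tlr13 and Timp1 (0.53 each), Cxcl5 (0.54), Arg1 (0.59) and Msr1 (0.65). These distances describe 4 arrays only, and for Ccl3 the 2 sham values are at or under background, so that its distances rest partly on levels not measured.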

How the data were processed

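The authors deposited RMA values on the log2 scale, 1 per probe set and array; RMA and the package oligo are named in the submitters' processing notes, while versions and a genome build are not given. Background subtraction, quantile normalisation and probe summary are parts of RMA, which would therefore hide a shift common to most genes. From 50 ng of total RNA, cDNA was amplified and 3 µg was biotinylated, per the labels' protocols. The values were used as deposited. Arrays have no read depth; their number limits the precision.

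Of 35556 probe sets, 21218 carried 1 gene symbol in the platform's annotation, 1881 several and 12457 none; 21185 of the 21218 matched a RefSeq gene of GRCm38.p6 by Entrez identifier. The brightest probe set by mean log2 stood for a gene, and genes under the 25th percentile of that mean (2.29) were left out. Arrays were compared by their log2 differences without a test, and by an additive model fitted to all 14115 genes with limma 3.58.1 (lmFit, eBayes, Benjamini-Hochberg) in R 4.3.3, after a check on simulated data. Alternatives were other normalisations, filters, probe set rules, folds, reference arrays and fits.

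The genes and lists were chosen with earlier results of these data known. Named genes were the 8 chemokine genes, Entpd1, up to 4 of each list with the largest mean ligation difference, and the 5 most similar genes of Ccl2, Ccl3 and Ccr2. Pecam1, Acta2, Nfkbia, Tnfaip3, genes left out as dim, and genes said to be named after their values were seen stand outside this rule.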

Additional observations from a re-analysis of the deposited data

Results flagged for a closer look

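Each of the following had an opposite sign in the groups compared; with 1 array per group, none of these differences was tested. The ligation difference in the Cd39-null pair minus that in the wild-type pair was -4.87 log2 for Ccl8 (-2.25 and 2.62), 2.85 for Ccl4 (2.82 and -0.03) and 2.92 for Entpd1 (1.98 and -0.94). The genotype difference in ligated veins minus that in sham veins, which is the same quantity, was -4.87 for Ccl8 (-3.23 and 1.63), 2.85 for Ccl4 (2.35 and -0.50) and 1.98 for Ccl3 (1.49 and -0.49, with Ccl3 at or under background on both sham arrays). It was -1.32 for Ccr2 (-0.25 and 1.07) and -0.54 for Ccl12 (-0.02 and 0.52). All of them use the ligated array whose Entpd1 level goes against its Cd39-null label.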

How the results depend on the processing

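The counts of chemokine and receptor genes at least 2-fold apart stayed within 1.5 times of those reported under quantile and cyclic loess normalisation, either filter setting and the mean over probe sets, in all 5 comparisons. With a 1.5-fold limit, 5 in place of 3 genes were higher in ligated veins of the Cd39-null label than in wild type, against 8.4% of all genes. Against wild type, sham, 0 in place of 1 gene was at least 2-fold lower on the array labelled Cd39-null, ligated (6.58% of all genes), and Entpd1 was at -0.97 there, in place of 1.98; the cause was not tested. With both sham arrays as the reference of wild type, ligated, so that the array labelled Cd39-null, ligated, was left out, 5 in place of 6 genes were at least 2-fold higher, against 6.81% of all genes. In the limma fits that left out 1 array each, without the genotype term, between 0 and 3 of the 8 genes and between 0 and 79 of all genes passed the adjusted p of 0.05, the higher values coming without the wild-type ligated array. Between 4 and 6 of the 8 had an unadjusted p under 0.05 in these fits, against 11.1% to 18% of all genes in either direction. A lone array in such a fit is assumed to vary like the other group. All other fits called 0 genes after adjustment. The labels give no replicate numbers, and the genotype term of the additive fit acts as a block of 1 ligated and 1 sham array. Without this block 0 of the 8 genes passed the adjusted p and 6 had an unadjusted p under 0.05, the same counts as with it. Of all genes, 19.2% without the block and 21% with it had an unadjusted p under 0.05 in either direction. Dim values limit Ccl3, whose sham levels were at or under background.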
